A study of Mus musculus with 48 samples.

Results

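The 10 genes described here mark macrophages and other leukocytes: C1qa, C1qb, C1qc, Adgre1, Csf1r, Cd68, Lyz2, Cd74, Ptprc and Cd3e. They were taken from the table by symbol and make up 10 of the 55487 Ensembl gene IDs in the count table, with 1 ID for each symbol. RNA was sequenced in bulk from slices of kidney treated outside the body. All mice were male and inbred, either C57BL/6J or DBA/2J, and the labels name no transgene or deletion. The 48 libraries form 16 groups of 3, namely each strain as control, with tunicamycin (which blocks N-linked glycosylation) and with cyclosporin A (a calcineurin inhibitor) at 6 h and at 24 h, under normoxia, and under normoxia-hyperoxia. The labels present normoxia as a model of ischemia and normoxia-hyperoxia as a model of reperfusion, and the titles place both at 24 h. Drug doses, the age of the mice and the oxygen level of the control slices are not given in the sources used here. The oxygen groups have no controls of their own in the titles and were set against the controls of the drug groups, so the condition and that part of the study cannot be told apart. The labels call the 3 replicates biological but do not say that they came from separate mice, so p-values measure only the spread between these samples.

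As background, the kidney holds resident macrophages and dendritic cells in a network around its tubules, with fewer T, B and other leukocytes. A slice has no circulation, so its leukocytes were in the tissue or its vessels at cutting or descend from cells that were. C1qa, C1qb and C1qc encode the chains of complement C1q, which tissue macrophages make in large amounts. Adgre1 encodes F4/80 and Csf1r the receptor for the macrophage growth factors CSF1 and IL-34. Cd68 encodes a glycoprotein of macrophage lysosomes and Lyz2 the lysozyme of myeloid cells. Cd74 encodes the invariant chain that guides MHC class II molecules through the cell, Ptprc the phosphatase CD45 of all leukocytes, and Cd3e a chain of the T cell receptor complex. In bulk RNA, fewer cells of a type and less RNA per cell cannot be told apart.

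Library totals ranged from 5619309 counts, in replicate 2 of DBA/2J normoxia-hyperoxia, to 25137581, with a median of 19607361 and a next lowest total of 12384733. Mitochondrial genes took 3.11% to 25.6% of a library. Levels are given as CPM, the count scaled to the library total. Fold changes come from the fit, which also scales libraries for composition (TMM factors), so they can differ from ratios of CPM. Of the 10 genes, all passed the filter on low counts in each comparison. The kidney markers Umod, Slc34a1 and Lrp2 were present in every group, the lowest Slc34a1 mean being 82.5 CPM.

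The 3 C1q genes lie next to one another on chromosome 4 of GRCm38, within 18675 bases at chr4:136880129-136898803, all on the minus strand. The other genes lie on 6 further chromosomes, among them Cd68 at chr11:69664213-69666153 and Lyz2 at chr10:117277331-117282321 (both minus strand). Csf1r overlaps Hmgxb3 on the opposite strand, and the strand setting of the counting is not given in the sources used here, so reads of the overlap could be counted for either gene. Hmgxb3 ran from 30.2 CPM in C57BL/6J normoxia to 76.6 CPM in DBA/2J with tunicamycin at 24 h. Lyz2 has the close relative Lyz1, which reached at most 0.712 CPM in any library.

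RefSeq promoter windows (GRCm38.p6, 250 bases before to 50 after the start) matched 6 of the 10 genes. Stretches of 4 are printed because Cd68 moved apart from most of the 10 genes in these data, as described below. Each runs 5′ to 3′ on the minus strand and stops before the annotated transcripts. Capitals mark the letters AGGAAGT, a core bound by ETS factors such as PU.1, or TGANTCA, the AP-1 letters, on either strand. The stretches are chr11:69666171-69666420 for Cd68, chr4:136886201-136886450 for C1qb, chr4:136893066-136893164 for C1qc and chr10:117282322-117282522 for Lyz2.
Cd68: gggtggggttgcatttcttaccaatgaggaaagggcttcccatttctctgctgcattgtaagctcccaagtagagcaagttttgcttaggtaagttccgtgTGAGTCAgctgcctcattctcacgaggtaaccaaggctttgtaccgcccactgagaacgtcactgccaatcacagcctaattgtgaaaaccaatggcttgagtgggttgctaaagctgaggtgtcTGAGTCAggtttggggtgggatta
C1qb: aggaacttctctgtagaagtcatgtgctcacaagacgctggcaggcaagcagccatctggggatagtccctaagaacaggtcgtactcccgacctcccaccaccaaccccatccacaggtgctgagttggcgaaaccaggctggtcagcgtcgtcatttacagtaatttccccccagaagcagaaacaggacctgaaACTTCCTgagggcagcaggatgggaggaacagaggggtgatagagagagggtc
C1qc: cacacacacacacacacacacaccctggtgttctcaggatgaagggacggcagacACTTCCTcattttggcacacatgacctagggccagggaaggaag
Lyz2: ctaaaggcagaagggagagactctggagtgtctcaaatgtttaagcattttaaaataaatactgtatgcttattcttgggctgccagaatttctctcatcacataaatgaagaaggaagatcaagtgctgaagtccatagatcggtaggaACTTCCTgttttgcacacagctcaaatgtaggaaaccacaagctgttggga
The AGGAAGT letters were searched after the windows had been read. They occurred in the windows of 5 of the 6 genes (C1qb, C1qc, Lyz2, Ptprc and Cd3e) and in 9.35% of all 32851 RefSeq windows. The Cd68 window lacked these exact letters, and looser forms of the core were not searched. It held TGANTCA at 149 and at 24 bases before the start. Those letters stood at least once in 7.81% of all windows and at 2 or more places in 0.46%. The C1qc match reads GAGGAAGT, found in 3.2% of windows, and the motifs AGGAAGT and GAGGAAGT overlap. Letters in a window describe the sequence and show no binding.

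RNA of all 10 genes was still measured at 24 h. Outside Cd3e, the lowest count of any gene in any of the 48 libraries was 100. Cd3e was sparse, with 0, 4 and 1 counts in the 3 C57BL/6J controls at 24 h, and the single library without a count allows up to 0.149 CPM. Counting error alone therefore limits what can be said of Cd3e in that group. Cd74 was the most abundant of the 10, from 145 ± 45.8 CPM in C57BL/6J controls at 24 h to 1356 ± 29.3 CPM in DBA/2J normoxia-hyperoxia (SD, n = 3). DBA/2J normoxia-hyperoxia had the highest mean of all 16 groups for 9 of the 10 genes, the exception being Cd68. For Csf1r, Lyz2 and Cd3e its range overlapped that of the next group. How many of all genes had their highest mean in this group was not counted. Per kilobase of annotated exon, the mean over the groups was 258 CPM for Cd74, 44.3 for Cd68, 25.9 for C1qa, 23.8 for C1qb, 11.8 for C1qc, 7.55 for Csf1r and 4.04 for Adgre1.

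**Figure D1:**
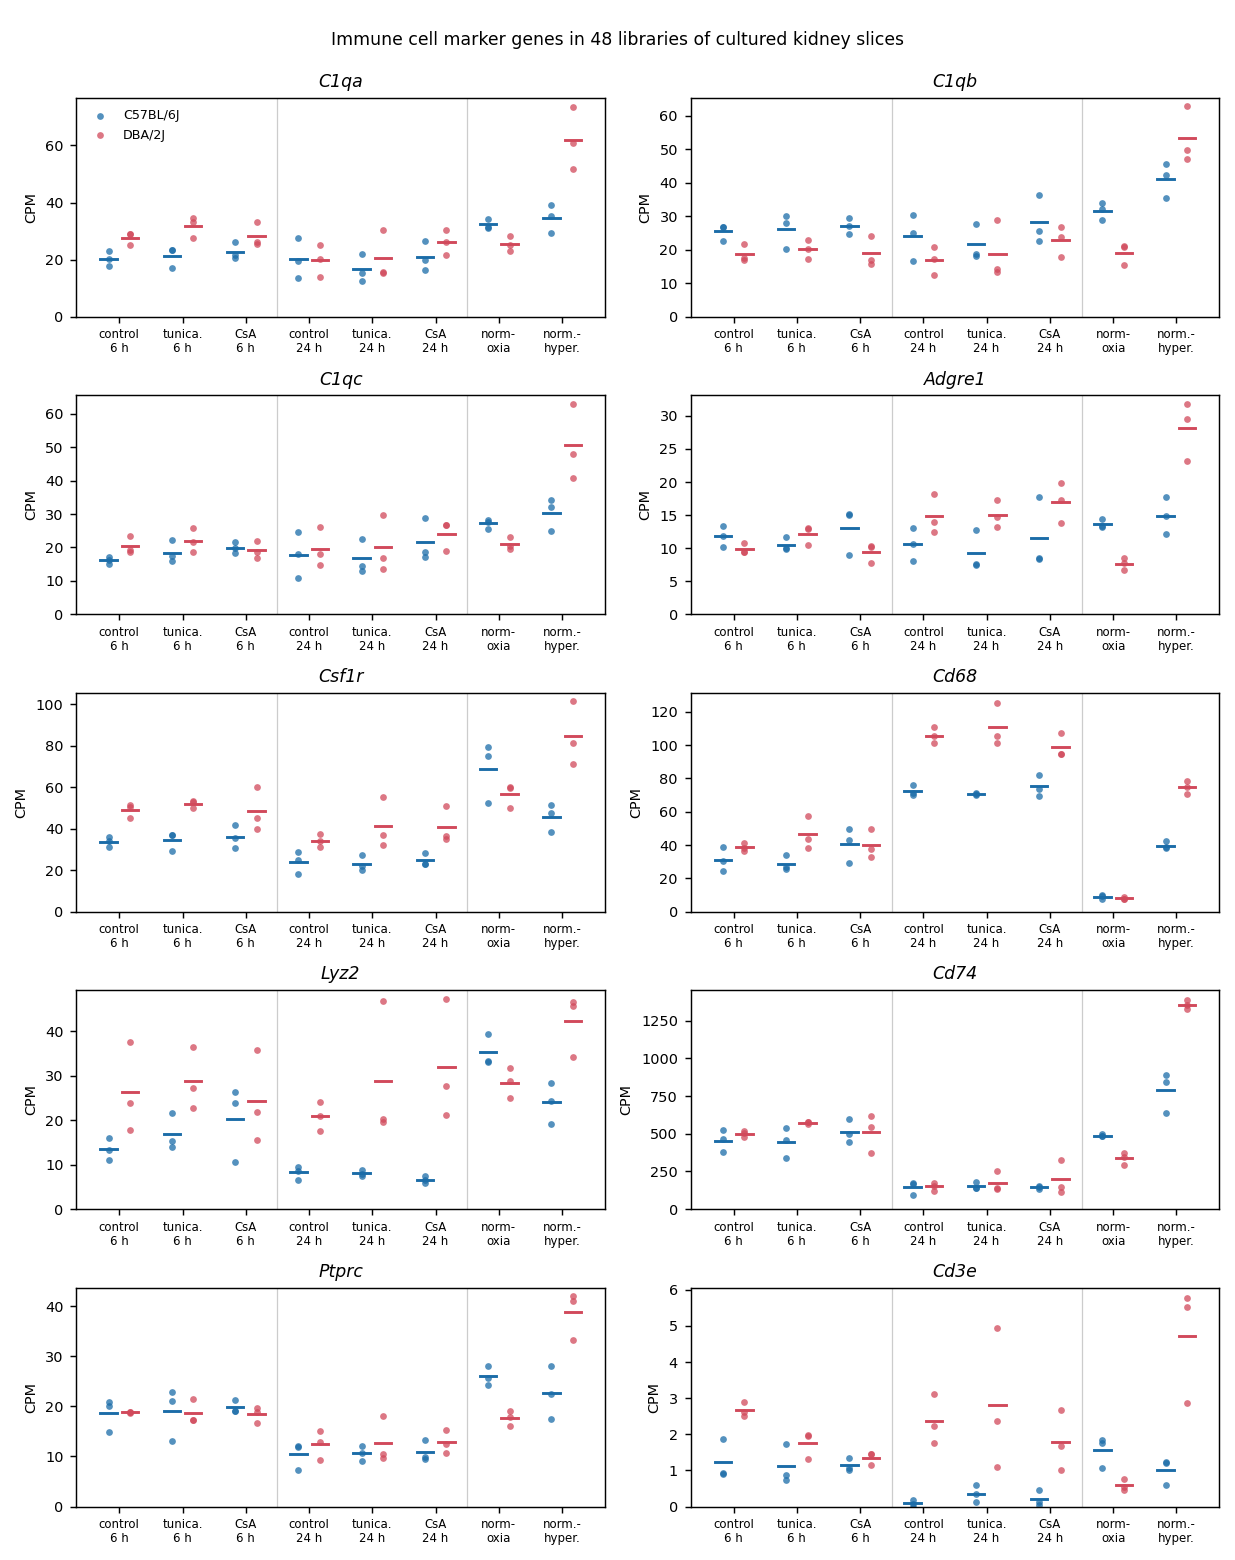
Level of each of the 10 genes in CPM (vertical axes, linear from 0) in the 8 conditions, with 1 point per library, a bar at the mean of 3, C57BL/6J in blue and DBA/2J in red. Cd68 is lowest under normoxia (8.01 and 8.96 CPM on average), and the other 9 genes have their highest mean in DBA/2J normoxia-hyperoxia.

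Most neighbours in the order of the 16 group means did not differ beyond their ranges. Of 15 neighbouring pairs, the ranges were apart at 3 places for Cd68, 2 each for C1qb, Ptprc and Cd74, 1 each for C1qa, C1qc, Adgre1, Csf1r and Lyz2, and 0 for Cd3e. The gaps of Cd68 set both normoxia groups at the bottom, then the 6 h groups with C57BL/6J normoxia-hyperoxia, then the 24 h drug and control groups of C57BL/6J with DBA/2J normoxia-hyperoxia, and the 24 h drug and control groups of DBA/2J at the top. For C1qa, C1qb, C1qc, Adgre1, Ptprc and Cd74 the topmost gap set DBA/2J normoxia-hyperoxia apart from all other groups.

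No change of any of the 10 genes passed the test with either drug. With tunicamycin, the counts past an edgeR quasi-likelihood Benjamini-Hochberg adjusted p of 0.05 were 0 of 10 at 6 h (0% of all genes tested) and 0 of 10 at 24 h (1.38% of all genes), and 0 of 10 at both times had an unadjusted p under 0.05. With cyclosporin A they were 0 of 10 at both times (0% of all genes at each), and DESeq2 also called 0 of 10 in all 4 comparisons. Cd3e at 6 h was the gene with an unadjusted p under 0.05 in the cyclosporin A comparisons, at a log2 change of -0.51 (SE 0.21). Leaving out Cd3e, the fitted log2 changes stayed within 0.31 of 0 with SEs of at most 0.27, so changes of about that size could not be told from 0.

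In Cd68, for example, the 24 h libraries of C57BL/6J read 71.1, 75.9 and 70.3 CPM as controls and 70.9, 71.3 and 70.1 CPM with tunicamycin. The DBA/2J libraries read 105, 111 and 101 CPM as controls and 106, 126 and 102 CPM with tunicamycin. The ranges overlapped in both strains. None of the 12 lists of other cell types and related genes, described below, had a member past the threshold with either drug at either time.

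Between 6 h and 24 h of culture the genes went different ways. The lysosomal marker Cd68 rose, while Cd74, Cd3e, Ptprc, Lyz2, Csf1r and, less firmly, C1qa fell. C1qb, C1qc and Adgre1 did not pass the test. Within C57BL/6J 6 of 10 passed (61.5% of all genes) and within DBA/2J 5 of 10 (62% of all genes). Over both strains, that makes 7 of 10 past the threshold in a comparison where 72% of 16962 genes passed (34.7% higher, 37.4% lower), so the count of changes is near that of genes at large.

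Among the C1q genes, C1qa read 17.6, 20.2 and 23.2 CPM in C57BL/6J controls at 6 h and 13.5, 27.7 and 19.7 CPM at 24 h. In DBA/2J it read 29, 29.1 and 25.1 CPM at 6 h and 25.3, 20.1 and 14.1 CPM at 24 h. The ranges overlapped in both strains. Over both strains C1qa fell by 0.45 on the log2 scale (SE 0.17, edgeR adjusted p = 0.033), but the call was lost in 10 of 19 alternative fits, among them those by library totals alone (adjusted p = 0.22). C1qb changed by -0.33 (SE 0.15, edgeR adjusted p = 0.070) and C1qc by -0.17 (SE 0.19, edgeR adjusted p = 0.44). Adgre1 had a fitted change of 0.00 (SE 0.13, edgeR adjusted p = 0.99), from -0.43 in C57BL/6J and 0.44 in DBA/2J, neither past the threshold. In CPM its DBA/2J libraries at 24 h lay above those at 6 h without overlap, while its C57BL/6J ranges overlapped.

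Csf1r, the growth factor receptor, fell 1.65-fold over both strains (log2 -0.72, SE 0.10, edgeR adjusted p = 1e-05). Its C57BL/6J libraries read 31.1, 35.8 and 34.1 CPM at 6 h, then 18.1, 28.6 and 25 CPM. Its DBA/2J libraries read 50.2, 45.3 and 51.5 CPM at 6 h, then 33.8, 37.3 and 31.4 CPM, and neither strain's ranges overlapped. Over the same interval the overlapping gene Hmgxb3 went the other way, with means of 34.3 and 71.3 CPM for C57BL/6J, and 44.3 and 75.2 CPM for DBA/2J. Lyz2 fell 1.67-fold (log2 -0.74, SE 0.17, edgeR adjusted p = 0.0018), with ranges apart in C57BL/6J and overlapping in DBA/2J.

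Cd68 was the only gene of the 10 with a rise past the threshold over both strains with time in culture. Its C57BL/6J libraries read 24.5, 38.8 and 30.6 CPM at 6 h and 71.1, 75.9 and 70.3 CPM at 24 h. Its DBA/2J libraries read 41.4, 38.2 and 36.5 CPM at 6 h and 105, 111 and 101 CPM at 24 h. All 24 h libraries lay above all 6 h libraries, and the fitted rise was 2.17-fold (log2 1.12, SE 0.09, edgeR adjusted p = 6.6e-08). Counted against C1qa within each library, Cd68 went from a mean ratio of 1.54 to 3.86 in C57BL/6J and from 1.4 to 5.62 in DBA/2J.

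Cd74 fell 3.74-fold (log2 -1.90, SE 0.16, edgeR adjusted p = 2.6e-07). The C57BL/6J libraries read 376, 527 and 462 CPM at 6 h, then 92.1, 174 and 169 CPM. Those of DBA/2J read 505, 477 and 516 CPM at 6 h, then 176, 154 and 123 CPM. Every 24 h library lay below every 6 h library. Of 10 MHC class II and dendritic cell genes tested, 8 fell and 0 rose, beside 37.4% of all genes lower. Those that fell included H2-Aa (log2 -2.40, SE 0.16) and H2-Eb1 (log2 -2.42, SE 0.15), which encode class II chains.

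Ptprc fell 1.91-fold (log2 -0.93, SE 0.14, edgeR adjusted p = 3.7e-05). The C57BL/6J libraries read 14.9, 21 and 20 CPM at 6 h, then 7.37, 11.9 and 12 CPM. Those of DBA/2J read 18.9, 18.7 and 19 CPM at 6 h, then 15.1, 13 and 9.34 CPM, again with no overlap. Cd3e fell in the mean over strains (log2 -2.11, SE 0.36, edgeR adjusted p = 9e-05). Without replicate 2 of the C57BL/6J controls at 24 h the value was -2.80. Its strains differed (DBA/2J effect minus C57BL/6J effect 3.58, SE 0.73, edgeR adjusted p = 0.041). In C57BL/6J the counts went from 16, 33 and 18 to 0, 4 and 1, while in DBA/2J they went from 55, 56 and 46 to 60, 44 and 26. Among all genes 0.69% had such a difference, 0.419% with DBA/2J higher. The Cd3e difference was 4.96 without replicate 2 and 2.97 without replicate 1 of the C57BL/6J controls at 24 h. It was lost when any of 9 single libraries was omitted, with an adjusted p of up to 0.13.

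The other lists were counted beside 34.7% of all genes higher and 37.4% lower with time. Of 15 pan-leukocyte genes, 2 rose and 6 fell with time, and of the 18 tested macrophage and monocyte genes beyond the 10, 5 rose and 7 fell, shares of falls near that of all genes. Of 12 T and NK cell genes tested, 0 rose and 10 fell, the T cell receptor gene Trac by 1.46 on the log2 scale (SE 0.22). Kidney epithelial identity genes fell in 12 of 12 cases (median log2 -1.97), endothelial genes in 8 of 12 with 2 higher, and fibroblast and mural cell genes in 9 of 12 with 0 higher. The summed epithelial list lay between 13854 and 16652 CPM in the C57BL/6J libraries at 6 h and between 3414 and 5874 CPM at 24 h. Since shares of 1 total move against each other, its part in the changes of the 10 genes was not tested.

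Under normoxia, set against the 24 h controls, all but Cd68 and Adgre1 were higher in the mean over strains. Of the 10 genes, 8 rose and 1 (Cd68) fell, where 82% of 17375 genes passed (42.4% higher, 39.7% lower). Within C57BL/6J 10 of 10 passed (76.1% of all genes) and within DBA/2J 8 of 10 (74.3%). Against the 6 h controls 8 of 10 passed (65.8% of 16819 genes), 6 of 10 within C57BL/6J (52.5%) and 3 of 10 within DBA/2J (55.4%). The count of 8 was 5 in the fit of all 48 libraries, and the Ptprc call in it (edgeR adjusted p = 0.049) was lost in 9 of 19 alternative fits. Relative to the 24 h controls, Cd74 rose 3.31-fold, Lyz2 2.93-fold, Csf1r 2.63-fold and Ptprc 2.27-fold. The C1q genes rose 1.47-fold to 1.72-fold over the same controls.

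Cd68 fell 8.54-fold (log2 -3.09, SE 0.07, edgeR adjusted p = 2.5e-15). Under normoxia it read 9.32, 9.76 and 7.81 CPM in C57BL/6J and 7.61, 7.56 and 8.87 CPM in DBA/2J, far below the 70.3 to 111 CPM of the 24 h controls. It also lay below the 6 h controls, by 2.02 on the log2 scale (SE 0.11, edgeR adjusted p = 1.1e-09). Its ratio to C1qa was 0.277 in C57BL/6J and 0.316 in DBA/2J on average, the lowest among the 8 conditions.

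Among the other phagocyte genes, C1qa read 34.2, 31.6 and 31.2 CPM in C57BL/6J normoxia and 22.9, 25 and 28.4 CPM in DBA/2J normoxia. These lay above the 24 h controls in C57BL/6J and overlapped them in DBA/2J. The mean rise was 0.78 on the log2 scale (SE 0.17, edgeR adjusted p = 0.0012), with 0.56 for C1qb (SE 0.16, edgeR adjusted p = 0.0054) and 0.63 for C1qc (SE 0.19, edgeR adjusted p = 0.0084). By library totals alone the calls of C1qb and C1qc were lost, at 0.29 (adjusted p = 0.11) and 0.35 (adjusted p = 0.099). Csf1r rose by 1.40 (SE 0.12, edgeR adjusted p = 1.8e-07), while Hmgxb3 had lower means, 30.2 against 71.3 CPM for C57BL/6J and 36.5 against 75.2 CPM for DBA/2J.

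Adgre1 went opposite ways in the strains under normoxia. It read 14.5, 13.1 and 13.3 CPM in C57BL/6J, above its 24 h controls of 8.01, 13 and 10.7 CPM, and rose by 0.58 there (SE 0.17, edgeR adjusted p = 0.0062). In DBA/2J it read 6.71, 7.71 and 8.58 CPM, below its controls of 18.2, 13.9 and 12.4 CPM, and fell by 0.63 (SE 0.17, edgeR adjusted p = 0.0041). The mean over strains was -0.02 (SE 0.12, edgeR adjusted p = 0.87), but -0.30 by library totals alone, which passed the threshold (edgeR adjusted p = 0.038). The strains' changes differed by -1.22 (SE 0.25, edgeR adjusted p = 0.0040). Cd3e also went opposite ways, higher by 4.20 in C57BL/6J (SE 0.57, edgeR adjusted p = 5.9e-06), where the controls held 0, 4 and 1 counts, and lower by 1.68 in DBA/2J (SE 0.39, edgeR adjusted p = 0.0012). The summed T and NK cell list of DBA/2J averaged 15.7 CPM in the 24 h controls and 26.7 CPM under normoxia, the other way from Cd3e.

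Cd74 under normoxia (484, 497 and 483 CPM in C57BL/6J, and 295, 345 and 371 CPM in DBA/2J) lay above every 24 h control. In C57BL/6J these values were within the range of the 6 h controls, and in DBA/2J below it. Against the 6 h controls it differed by -0.22 (SE 0.09, edgeR adjusted p = 0.042), a call that was lost in 15 of 19 alternative fits. Ptprc read 25.7, 28.2 and 24.2 CPM in C57BL/6J normoxia and 16, 19.2 and 17.9 CPM in DBA/2J normoxia, above the 24 h controls in both strains. Relative to those controls, it rose by 1.18 (SE 0.13, edgeR adjusted p = 4.4e-07).

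The lists stand beside 42.4% of all genes higher and 39.7% lower under normoxia. Here 11 of 12 MHC class II and dendritic cell genes rose and 0 fell under normoxia, as did 12 of 14 T and NK cell genes with 1 lower. Il7r, which encodes the IL-7 receptor, was the gene that fell (log2 -2.69, SE 0.21). Pan-leukocyte genes rose in 10 of 15 cases and fell in 2, and macrophage and monocyte genes beyond the 10 rose in 6 of 17 and fell in 6. Itgam, which encodes the integrin chain CD11b, fell like Cd68 (log2 -2.45, SE 0.12), as did the actin regulator gene Arhgdib (log2 -1.85, SE 0.05). Kidney epithelial genes rose in 11 of 12 cases (median log2 2.17), and their part in the changes of the 10 genes was not tested.

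Of 10 macrophage activation genes tested, 10 fell under normoxia and 0 rose. Hmox1, the heme-degrading enzyme, fell by 6.93 on the log2 scale (SE 0.09) and Spp1, which encodes osteopontin and is also made by tubules, by 1.67 (SE 0.12). Over all 48 libraries Hmox1 averaged 2098.5 CPM and Spp1 2041.1 CPM, against 55.7 CPM for Cd68. Which cells held this RNA was not tested, so the list's name does not place these changes in macrophages. Csf1, the growth factor for CSF1R, fell by 3.94 (SE 0.13). Its means were 18.1 against 291 CPM for C57BL/6J, and 11.6 against 248 CPM for DBA/2J. The other ligand gene, Il34, rose by 0.66 (SE 0.08). The receptor and a ligand thus moved in opposite directions.

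**Figure D2:**
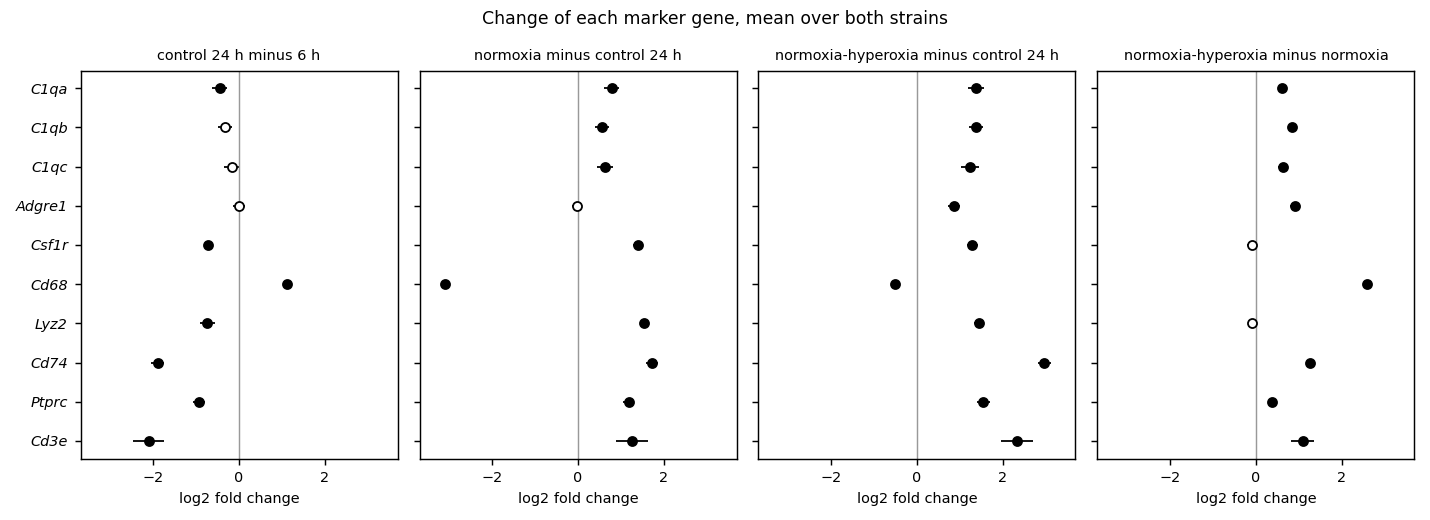
Log2 fold change of each of the 10 genes (horizontal axes) with its SE, as the mean over both strains in 4 comparisons, filled where the edgeR adjusted p is under 0.05. Cd68 stands opposite to most other genes in the first 3 panels, at 1.12, -3.09 and -0.51 (Adgre1 is at 0.00 and -0.02 in the first and second), and has the largest rise in the last, at 2.59.

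Under normoxia-hyperoxia 9 of the 10 genes were higher than in the 24 h controls, which these comparisons share with those of normoxia, and Cd68 was lower. All 10 passed the threshold, where 68.2% of 17256 genes did (34.1% higher, 34.1% lower). All 10 also passed within C57BL/6J (57.4% of all genes) and within DBA/2J (57.3%). Cd74 rose 7.87-fold, to 639, 840 and 889 CPM in C57BL/6J and to 1387, 1353 and 1328 CPM in DBA/2J, above every control at either time (log2 2.98, SE 0.16, edgeR adjusted p = 8e-09). The C1q genes rose 2.36-fold to 2.62-fold, Ptprc 2.92-fold, Lyz2 2.73-fold, Csf1r 2.45-fold and Adgre1 1.83-fold. Against the 6 h controls 9 of 10 were higher as well (44.9% of 16841 genes passed, 22.4% higher), Cd3e being the exception at 0.24 (SE 0.26, edgeR adjusted p = 0.48).

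The C1q genes under normoxia-hyperoxia lay above their 24 h controls without overlap in both strains. C1qa read 29.4, 39.1 and 35.2 CPM in C57BL/6J and 73.6, 60.7 and 51.7 CPM in DBA/2J. C1qb read 35.4, 45.7 and 42.2 CPM in C57BL/6J and 62.8, 49.8 and 47 CPM in DBA/2J. The DBA/2J libraries were the higher ones for both genes.

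Under normoxia-hyperoxia the Cd68 libraries read 38.7, 38 and 42.5 CPM (C57BL/6J) and 74.9, 70.8 and 78.3 CPM (DBA/2J). Cd68 lay between the normoxia libraries and the 24 h controls of the same strain, overlapping neither. The difference was -0.51 from the controls (SE 0.05, edgeR adjusted p = 7.7e-07) and 2.59 from normoxia (SE 0.07, edgeR adjusted p = 1.6e-13), which is 6.04-fold.

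Between the oxygen conditions, 8 of the 10 genes were higher under normoxia-hyperoxia and 0 lower, where 73.5% of 17228 genes passed (37% higher, 36.5% lower). Csf1r (log2 -0.09, SE 0.12, edgeR adjusted p = 0.53) and Lyz2 (log2 -0.08, SE 0.11, edgeR adjusted p = 0.51) did not pass in the mean, and both fell in C57BL/6J and rose in DBA/2J. Beside them, 9 of 10 macrophage activation genes rose and 0 fell, with Hmox1 up by 5.35 on the log2 scale (SE 0.13), and Csf1 rose by 4.20 (SE 0.14). Pan-leukocyte genes rose in 12 of 15 cases, macrophage and monocyte genes beyond the 10 in 13 of 18 with 3 lower, and endothelial genes in 9 of 12.

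Of 12 kidney epithelial genes, 5 were higher and 5 lower between these conditions, shares near the 37% and 36.5% of all genes. The proximal tubule transporter gene Slc34a1 fell by 4.93 (SE 0.17), with means of 82.5 against 3742 CPM for C57BL/6J, and 371 against 6764 CPM for DBA/2J, while Slc12a3, the distal tubule cotransporter gene, rose by 1.31 (SE 0.14). The part of such shifts in the levels of the 10 genes was not tested.

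**Figure D3:**
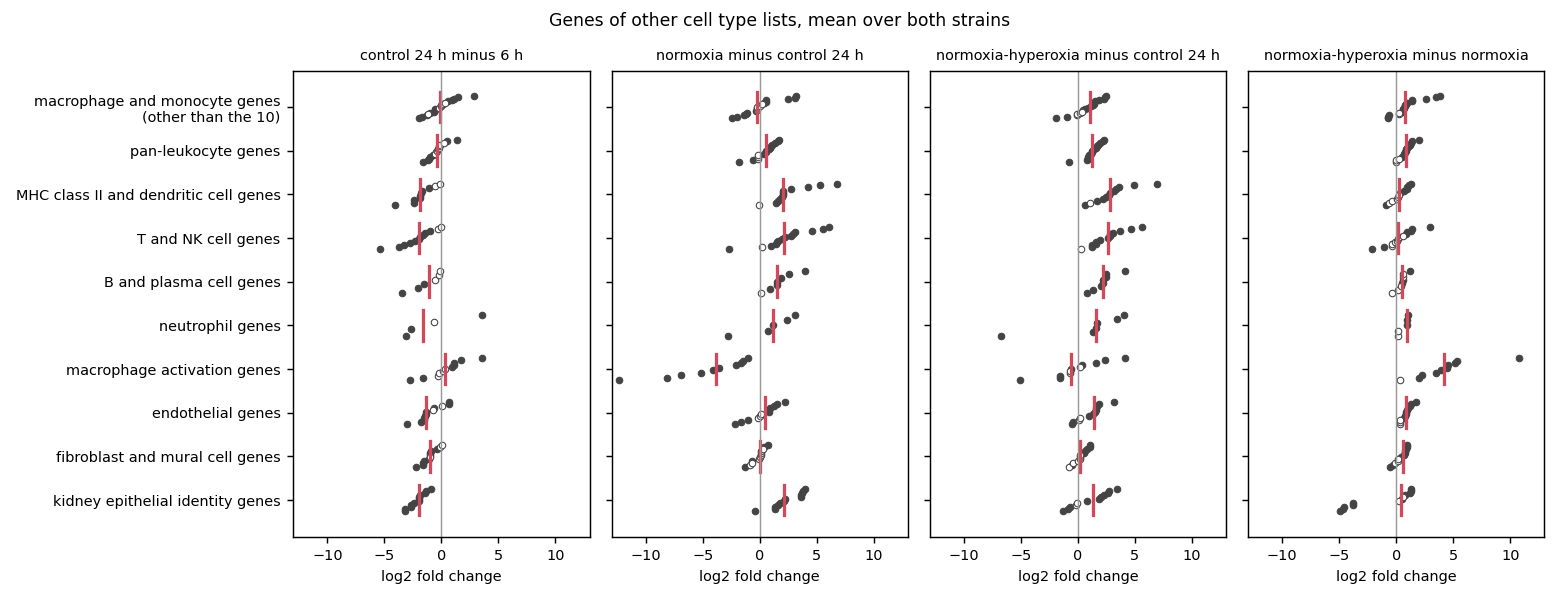
Log2 fold change (horizontal axes) of each tested gene of 10 lists in 4 comparisons, as the mean over both strains, filled where the edgeR adjusted p is under 0.05, with a red bar at the list's median. MHC class II and T cell genes lie low at 24 h and high in both oxygen conditions, and macrophage activation genes are low under normoxia (median -3.83) and higher under normoxia-hyperoxia than under normoxia (median 4.20).

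The strains differed in how the genes went from normoxia to normoxia-hyperoxia. The signed log2 change was higher in DBA/2J for 10 of 10 genes, with differences of 0.91 to 3.40 on the log2 scale, all past the threshold. Among all 17228 genes, 18.2% had such a difference, 7.2% with DBA/2J higher. The count stayed at 10 without replicate 2 of DBA/2J normoxia-hyperoxia, the shallowest library, and was 9 in a fit of all 48 libraries, where Lyz2 was lost (adjusted p = 0.12). The 10 genes share these libraries and, in part, a cell type, so they are not 10 independent observations.

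Within C57BL/6J, Cd68 rose by 2.14 (SE 0.10), Cd74 by 0.69 (SE 0.12) and C1qb by 0.37 (SE 0.14) from normoxia to normoxia-hyperoxia, and Csf1r fell by 0.59 (SE 0.17) and Lyz2 by 0.56 (SE 0.15). In DBA/2J all 10 genes rose, from 0.39 for Lyz2 (SE 0.15) to 3.05 for Cd68 (SE 0.10). The background was 61.8% of genes past the threshold in C57BL/6J and 68.5% in DBA/2J. Adgre1 shows the contrast: it read 12.2, 17.7 and 14.8 CPM in C57BL/6J normoxia-hyperoxia, overlapping normoxia, and 29.5, 31.9 and 23.2 CPM in DBA/2J, above every DBA/2J normoxia library. Its difference between strains was 1.56 (SE 0.21, edgeR adjusted p = 4e-04).

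**Figure D4:**
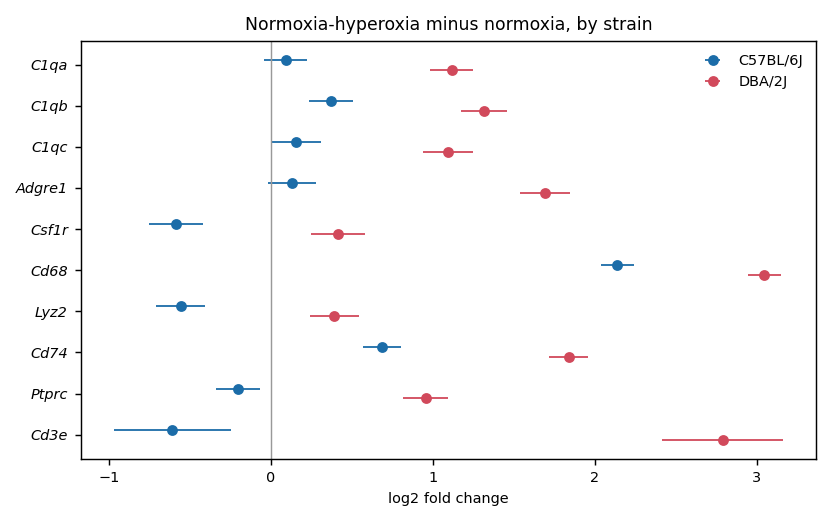
Log2 fold change from normoxia to normoxia-hyperoxia (horizontal axis) with its SE for each of the 10 genes, C57BL/6J in blue and DBA/2J in red. Every gene has the higher signed change in DBA/2J, and Csf1r, Lyz2, Ptprc and Cd3e have estimates on either side of 0.

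Part of this difference lay at each end. Under normoxia, 5 of 10 genes were lower in DBA/2J and 0 higher, where 46.8% of genes differed (18.5% lower), namely Adgre1, C1qb, Cd3e, Cd74 and Ptprc. Under normoxia-hyperoxia, 9 of 10 were higher in DBA/2J and 0 lower, where 25.7% of genes differed (14.3% higher), C1qb being the exception at 0.28 (SE 0.14, edgeR adjusted p = 0.15). For all 10 genes the 3 DBA/2J libraries lay above the 3 C57BL/6J libraries in CPM, a separation that was not counted over all genes. Ptprc, for example, read 17.6, 22.5 and 28 CPM in C57BL/6J and 41.1, 42 and 33.3 CPM in DBA/2J. Scaling to library totals without mitochondrial genes, which took 22.8% to 25.6% of C57BL/6J and 11.8% to 12.8% of DBA/2J normoxia libraries, moved the normoxia count from 5 to 9. That scaling also turned the median strain difference of all genes from higher to lower in DBA/2J, so the larger count is not particular to the 10 genes.

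The lists of other genes were counted in the same way, beside 7.2% of all genes with the higher signed change in DBA/2J and 11% with the lower. The signed change from normoxia to normoxia-hyperoxia was higher in DBA/2J for 14 of 15 pan-leukocyte genes, 11 of 18 macrophage and monocyte genes with 1 lower, and 9 of 12 MHC class II and dendritic cell genes. It was higher for 3 of 14 T and NK cell genes with 1 lower, 0 of 8 B and plasma cell genes, 1 of 5 neutrophil genes and 0 of 2 mast cell genes. For fibroblast and mural cell genes it was higher in 3 of 12, for endothelial genes in 2 of 12 and for kidney epithelial genes in 2 of 12, with 0 lower in each. The summed pan-leukocyte list ran from 245 to 334 CPM in C57BL/6J normoxia-hyperoxia libraries and from 469 to 501 CPM in those of DBA/2J.

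In control slices the strains differed in fewer of the 10 genes. At 6 h Csf1r (0.39, SE 0.14, edgeR adjusted p = 0.046) and Lyz2 (0.83, SE 0.24, edgeR adjusted p = 0.022) were higher in DBA/2J, where 26.2% of genes differed, and leaving out single libraries moved the count of 2 to between 0 and 4. At 24 h Cd68, Csf1r, Lyz2 and Cd3e were higher in DBA/2J, 4 of 10 where 22.2% of genes differed (13.9% higher). Leaving out single libraries moved that count to between 3 and 5, and the Csf1r call was lost in 5 of 18 alternative fits (adjusted p up to 0.098). Lyz2 read 6.62, 8.67 and 9.45 CPM in C57BL/6J and 24, 17.7 and 20.9 CPM in DBA/2J at 24 h, without overlap, and differed by 1.32 (SE 0.25, edgeR adjusted p = 0.0023).

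From 24 h controls to normoxia the strains differed for 4 of the 10 genes (17% of all genes differed, 6.88% with the DBA/2J change lower), or for 7 without the filter on low counts. Lyz2 rose by 2.33 in C57BL/6J (SE 0.15) and by 0.77 in DBA/2J (SE 0.13), a difference of -1.56 (SE 0.20, edgeR adjusted p = 0.00017). Its normoxia libraries read 39.4, 33.1 and 33.4 CPM in C57BL/6J and 24.9, 31.6 and 28.7 CPM in DBA/2J, so by CPM ranges the order of the strains turned relative to the 24 h controls. The fitted strain difference under normoxia, -0.25 (SE 0.15, edgeR adjusted p = 0.20), did not pass the threshold. From 24 h controls to normoxia-hyperoxia, 0 of 10 differed between strains (1.43% of all genes). By the same edgeR fit without the filter on low counts 5 did, and the smallest adjusted p with the filter was 0.14, for Cd3e.

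Across the 16 group means, 9 of the genes ran broadly together and Cd68 apart from them. Pearson's r on the log2 scale was 0.15 to 0.97 over the 36 pairs without Cd68, with a median of 0.72, and -0.53 to 0.24 over the 9 pairs with it. The means share libraries, depth and conditions, so these r describe only these groups. The genes nearest to the mean of the 3 C1q genes among 18719 were Cd48 (r 0.97), Laptm5 (0.97), Pla2g15 (0.95), Il10ra (0.95) and Ctss (0.94). Cd48, Laptm5 and Ctss were already in the lists of leukocyte genes. Nearest to Cd68 were Epop (0.99), Clec4d (0.98), Fam83f (0.98), Lsmem1 (0.98) and Tmem171 (0.98), and nearest to Ptprc were Ppat, Lsp1, Rac2, Rtp3 and B3glct (0.97 to 0.98). With library totals alone, 3 of the 5 for C1q, 5 of 5 for Cd68 and 3 of 5 for Ptprc were shared.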

How the data were processed

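Gene counts of 48 libraries were used as deposited by the authors, as whole numbers of reads per Ensembl gene ID with no normalization. Per the labels' protocols, total RNA was made into stranded mRNA libraries. Per the submitters' processing notes, bcl2fastq 2.20.0, FastQC 0.11.8, STAR 2.7.9a, featureCounts 1.5.1 and GRCm38 were used, and the strand setting is not given in the sources used here. Symbols and coordinates came from GENCODE annotation of GRCm38, which matched 55141 of 55487 IDs.

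From these counts, 10 comparisons were fitted with edgeR 4.0.16 (R 4.3.3), each on the 12 libraries of its 4 groups, 2 conditions in both strains, which leaves 8 residual degrees of freedom. The fits used filterByExpr, TMM factors and robust quasi-likelihood tests, with Benjamini-Hochberg adjustment over all genes tested and a threshold of 0.05. An effect over both strains is the mean of the within-strain effects. CPM values are counts scaled to the library total. The fits were tested on simulated data. Alternatives were other scalings, no filter, DESeq2 1.42.0, all 48 libraries in 1 fit, a replicate block, and leaving out each library.

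Same-numbered replicates were not taken as pairs, since no comparison had all 6 correlations of their deviations over 0.1. The 10 genes and the lists were chosen with earlier results of these data known. From each list, the 2 genes of highest mean CPM could be named, plus genes set beside a result. For C1q, Cd68 and Ptprc the 5 genes of most like pattern were named.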

Additional observations from a re-analysis of the deposited data

Results flagged for a closer look

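In 15 cases a gene's change differed between C57BL/6J and DBA/2J by a test of the difference itself (DBA/2J change minus C57BL/6J change on the log2 scale, edgeR quasi-likelihood with Benjamini-Hochberg adjustment). With 3 libraries a group, no test for a single deviating library was made.

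From 6 h to 24 h in control slices the difference was 3.58 for Cd3e (SE 0.73). From the 24 h controls to normoxia it was -1.22 for Adgre1 (SE 0.25), -5.87 for Cd3e (SE 0.69), -0.59 for Cd68 (SE 0.13) and -1.56 for Lyz2 (SE 0.20). The Cd3e values rest on C57BL/6J controls at 24 h with 0, 4 and 1 counts. Without replicate 2 of those controls they were 4.96 and -7.25, and without replicate 1 they were 2.97 and -5.24.

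From normoxia to normoxia-hyperoxia all 10 genes had the higher signed change in DBA/2J. The differences were 1.02 for C1qa (SE 0.19), 0.94 for C1qb (SE 0.20), 0.94 for C1qc (SE 0.21), 1.56 for Adgre1 (SE 0.21) and 1.00 for Csf1r (SE 0.24). For Cd68 the difference was 0.91 (SE 0.14), for Lyz2 0.95 (SE 0.22), for Cd74 1.15 (SE 0.17), for Ptprc 1.16 (SE 0.20) and for Cd3e 3.40 (SE 0.52). The share of mitochondrial counts, 22.8% to 25.6% in C57BL/6J and 11.8% to 12.8% in DBA/2J normoxia libraries, moved with the strain, and its part in these differences was not tested.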

How the results depend on the processing

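Of 1785 alternative values for 95 gene results, 1689 kept their direction and side of the threshold, 69 lost the call, 10 gained it and 17 changed sign. Every change of sign was in a gene near 0 or without a call. Adgre1 from 6 h to 24 h went from 0.00 to -0.010 without the filter and to -0.012 with the replicate block, and ran from -0.097 to 0.088 when single libraries were left out. Under normoxia its value ran from -0.11 to 0.076 over the 24 h controls and from -0.12 to 0.025 over the 6 h controls with single libraries left out, and was 0.029 over the 6 h controls by totals without mitochondrial genes. By library totals alone it was -0.30 against the 24 h controls, a call gained (adjusted p = 0.038). By library totals alone C1qc from 6 h to 24 h was 0.044 and Lyz2 between the oxygen conditions 0.0046. Of the counts of the 10 genes called, normoxia against 6 h controls went from 8 to 5 in the fit of all 48 libraries. Without the filter, counts of strain differences went from 1 to 2 (24 h against 6 h), from 4 to 7 (normoxia) and from 0 to 5 (normoxia-hyperoxia against 24 h controls). Leaving out single libraries gave 0 to 1 for the first and the last of these. DBA/2J against C57BL/6J at 6 h went from 2 to 4 without the filter, to 0 in the fit of all 48 libraries and to between 0 and 4 without single libraries. Under normoxia it went from 5 to 9 without the filter and to 9 by totals without mitochondrial genes, which moved the median of all genes from 0.083 to -0.193. The replicate block moved the count of strain differences of normoxia-hyperoxia against 24 h controls from 0 to 3, and no other count by over 1.5 times. Same-numbered samples correlated by 0.0137 to 0.179 on average, and 2 to 6 of 6 correlated best with their own number. Depth limits Cd3e, whose counts were 0, 4 and 1 in 1 group. The cause of these shifts was not tested.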

Other observations

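Of 6 B and plasma cell genes tested from 6 h to 24 h, 3 fell and 0 rose, where 37.4% of all genes were lower. Of 8 tested under normoxia-hyperoxia against the 24 h controls, 8 rose, where 34.1% of all genes were higher. Jchain, which encodes the joining chain of secreted antibodies, averaged 3.19 CPM at 6 h and 0.316 CPM at 24 h for C57BL/6J controls, against 68.7 and 6.9 CPM for DBA/2J. Ltf, the lactoferrin gene of neutrophils, fell by 3.15 from 6 h to 24 h (SE 0.40) and rose by 3.43 under normoxia-hyperoxia (SE 0.44). Of 4 neutrophil genes tested with time, 1 rose and 2 fell. Kit, in the mast cell list but also expressed by other cells, rose by 1.43 with time (SE 0.14), while the mast cell receptor gene Ms4a2 fell by 1.30 (SE 0.54).

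Among the ligands, partners and regulators of the 10 genes, Mif, which encodes a ligand of CD74, rose by 1.00 from 6 h to 24 h (SE 0.07) while Cd74 fell, and fell by 1.45 under normoxia (SE 0.08) while Cd74 rose. Spi1, which encodes the myeloid factor PU.1, had a change of -0.11 with time (SE 0.14) and of 0.08 under normoxia (SE 0.13), neither past the threshold, and rose by 1.44 under normoxia-hyperoxia (SE 0.14).

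The ratio of C1qb to C1qa counts separated the strains in all 8 conditions. It ran from 0.926 to 1.44 over the 24 C57BL/6J libraries (median 1.21) and from 0.583 to 0.946 over the 24 DBA/2J libraries (median 0.819). The ratio of C1qc to C1qa overlapped, from 0.691 to 1.09 in C57BL/6J and from 0.638 to 1.08 in DBA/2J. These ratios were chosen after their values were seen. Reads of DBA/2J were counted against a C57BL/6J-based genome, and the part of sequence differences in the ratio was not tested.

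In DBA/2J controls at 24 h, Cd3e averaged 2.37 CPM while its partner chain genes Cd3d and Cd3g averaged 0.0226 and 0.238 CPM. In C57BL/6J the same controls held 0.0887 CPM of Cd3e, 0.146 CPM of Cd3d and 0.109 CPM of Cd3g. The 3 chain genes thus did not keep 1 ratio across the strains.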
